A study of Mus musculus with 2 samples.

Results

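The constitutive proteasome genes were taken as genes with a protein-coding transcript whose symbol begins with Psm, one of the letters a to g and a number, leaving out the interferon-inducible Psmb8, Psmb9 and Psmb10. This rule found 47 of 55536 annotated genes, of which 21938 are nuclear-encoded protein-coding genes. They comprised 7 alpha and 7 beta subunits of the 20S core, 9 subunits of the 19S base, 8 of the 19S lid, 5 activator genes, 1 inhibitor, 7 assembly chaperones and 2 tissue-restricted core subunits. The last match, Psmc3ip, encodes a meiotic recombination factor and shares only the symbol with the proteasome. The genes lie on 16 chromosomes and carry 257 annotated transcripts.

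RNA came from the nucleoplasm (soluble nuclear fraction) of bone marrow-derived macrophages of C57BL/6J mice, stimulated with Lipid A, the part of bacterial lipopolysaccharide that Tlr4 senses. Lipid A was given at 100 ng/ml for 120 min, and ribosomal RNA was depleted before sequencing. The 2 libraries form 1 group, replicates 1 and 2, with separate biosample entries but the same donor entry, and the labels do not give the age or sex of the mice. Elsewhere the labels call the fraction simply the nucleus. Unstimulated cells were not analysed here, so levels cannot be read as induction, and there was no second group to test against.

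The proteasome is the protease that degrades ubiquitin-tagged proteins. Its 20S core is a barrel of stacked rings, with alpha subunits as the gate and beta subunits inside that hold the protease sites. The 19S cap binds the ubiquitin chain, removes it in the lid, and unfolds the substrate through a ring of ATPases in the base. Other activators, the PA28 and PA200 proteins, can take the place of the cap. In macrophages, interferons replace the catalytic beta subunits by inducible ones, which changes the peptides cut for antigen presentation.

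Estimated counts over all genes summed to 14374739 for replicate 1 and 16372797 for replicate 2. The RNA input was 1 µg for replicate 1 and 500 ng for replicate 2, so input and replicate cannot be told apart. Mitochondrial RNA took 0.424% and 8.70% of counts. All 10 macrophage markers reached 1 TPM (an abundance divided by transcript length and scaled to one total per table) in both libraries, with medians of 88.6 and 180.8 TPM. The 12 stromal markers summed to 99.9 TPM in replicate 1 and 0.42 TPM in replicate 2, and their part in the differences below was not tested. Of 20 markers of T cells, B cells, neutrophils and erythroid cells, only Lck and Alas2 reached 1 TPM in both. Fewer cells of a type and less RNA per cell cannot be told apart in such bulk libraries.

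RNA of nearly every proteasome gene was present. Detection, defined as 1 TPM or more in both libraries, was met by 42 of the 47, where 40.5% of all nuclear protein-coding genes met it. At 5 TPM or more in both the count was 33, against 24.5% of all such genes. The 47 genes held 0.117% of counts in replicate 1 (95% Wilson interval 0.115% to 0.119%) and 0.105% in replicate 2 (0.103% to 0.106%). As shares of the TPM of nuclear protein-coding genes these were 0.419% and 0.395%. Their median was 14.7 TPM in replicate 1 and 11.0 TPM in replicate 2. For the 9548 nuclear protein-coding genes whose mean reached 1 TPM the median was 9.41 and 6.42 TPM.

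The complex formed a ladder of levels by class. Median TPM over members was 42.6 ± 16.6 for the activators, 19.2 ± 6.61 for the lid, 16.2 ± 5.25 for the base, 13.0 ± 3.20 for the 20S core and 1.73 ± 0.403 for the assembly chaperones (median of the genes' mean values, with the SD of the library medians, n = 2). The lid, base and core medians overlapped within these SDs, which include the difference in TPM between the libraries. Within each library the order was the same, with 23.7 and 14.3 TPM for the lid. The base had 21.2 and 13.8 TPM and the core 14.9 and 10.4 TPM. The median of the chaperones lay below and that of the activators above the others in each library. In the read-based transcript table, the order of base and core was the other way round, at 10.8 TPM for the base and 13.8 TPM for the core.

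**Figure D1:**
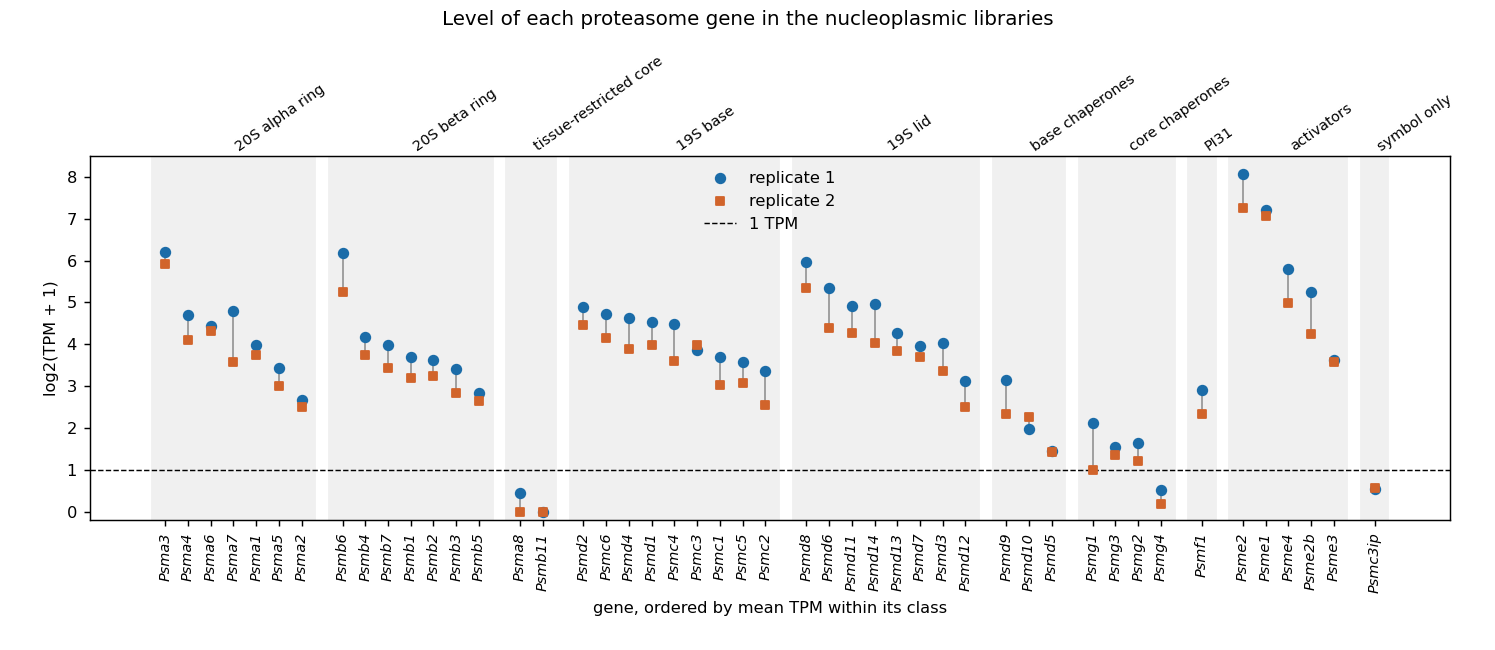
Level of each of the 47 genes as log2(TPM + 1), with circles for replicate 1, squares for replicate 2, and shading for the classes; the dashed line marks 1 TPM. The activators Psme2 and Psme1 stand highest, all 31 standard core and cap subunits lie above the line, and the tissue-restricted subunits and Psmc3ip lie below it.

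The 20S core subunits were all detected. Among the alpha subunits, which gate the barrel, Psma3 (chromosome 12, 70974621 to 70996347, plus strand, mm10) was highest at 72.7 TPM in replicate 1 and 59.9 TPM in replicate 2. Psma4 followed at 25.01 and 16.3 TPM, Psma6 at 20.7 and 19.04 TPM, Psma7 at 26.9 and 11.0 TPM, and Psma1 at 14.9 and 12.3 TPM. Psma5 stood at 9.80 and 7.06 TPM and Psma2 at 5.40 and 4.66 TPM. In both libraries Psma3 lay above and Psma2 below every other alpha subunit.

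Among the beta subunits, the caspase-like protease subunit Psmb6 (chromosome 11, 70525367 to 70527858, plus strand) led with 71.2 TPM in replicate 1 and 37.0 TPM in replicate 2. The trypsin-like subunit Psmb7 (chromosome 2, 38588036 to 38644087, minus strand) stood at 14.9 and 9.76 TPM. The chymotrypsin-like subunit Psmb5 (chromosome 14, 54614119 to 54618022, minus strand) was the lowest of the ring at 6.13 and 5.25 TPM, from 58.9 and 76 counts. The subunits without a protease site lay between, from Psmb4 at 17.1 and 12.5 TPM, through Psmb1 (11.9 and 8.09 TPM) and Psmb2 (11.4 and 8.53 TPM), to Psmb3 at 9.69 and 6.15 TPM. RNA of the 3 catalytic subunits, which sit in the core in equal number, thus spanned a wide range of gene TPM.

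That range depended on which transcripts were counted. Restricted to transcripts annotated as protein_coding, Psmb6 stood at 28.7 and 21.8 TPM, Psmb5 at 6.13 and 5.25 TPM and Psmb7 at 3.71 and 4.69 TPM. Psmb7 then lay below Psmb5 in both libraries. In the read-based table, coding transcripts of Psmb7 stood at 4.10 and 3.89 TPM and those of Psmb5 at 4.23 and 3.33 TPM, so their order was not the same in both libraries there.

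The inducible counterparts were set beside them because they replace the same subunits. Over all transcripts, Psmb8 stood at 61.6 TPM in replicate 1 and 38.7 TPM in replicate 2, which was 10.05 and 7.37 times the TPM of Psmb5. Psmb10 stood at 64.9 and 35.5 TPM, 4.35 and 3.64 times Psmb7. Psmb9 stood at 52.9 and 37.4 TPM, 0.743 and 1.01 times Psmb6.

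Over coding transcripts alone, most of the gap between Psmb8 and Psmb5 was gone. Psmb8 then stood at 6.02 and 6.05 TPM, 0.982 and 1.15 times Psmb5, since 90.2% and 84.4% of its TPM lay in transcripts annotated as retained_intron. Coding transcripts of Psmb9 stood at 9.45 and 7.41 TPM, 0.329 and 0.341 times those of Psmb6. Those of Psmb10 stood at 11.54 and 7.23 TPM, 3.11 and 1.54 times those of Psmb7. In the read-based table these coding ratios were 1.503 and 0.999 for Psmb8, 0.493 and 0.422 for Psmb9, and 1.84 and 1.28 for Psmb10.

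**Figure D2:**
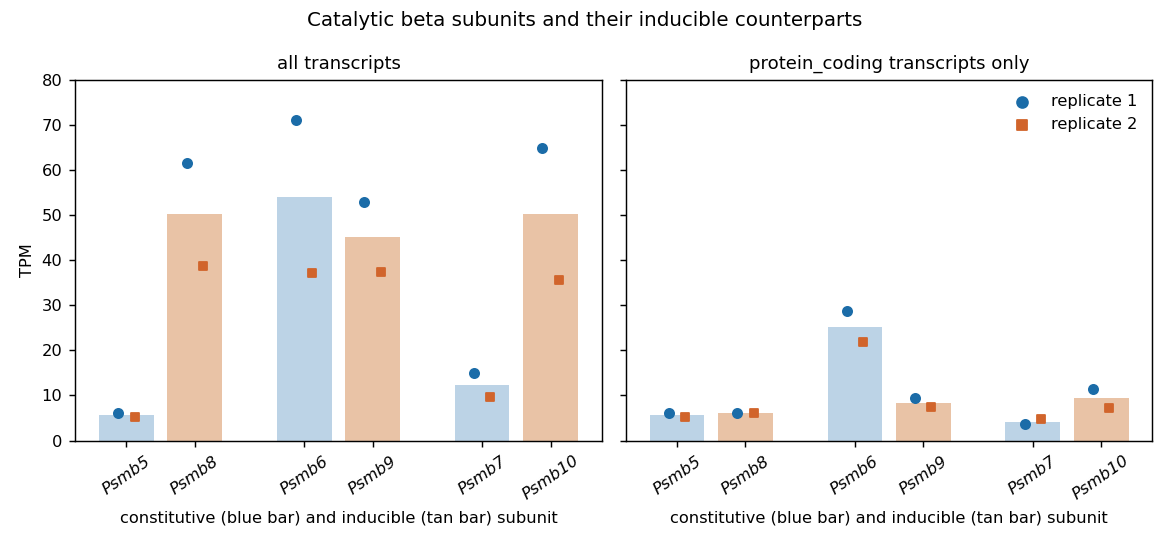
TPM of the catalytic beta subunits (blue bars) and of the inducible subunits that replace them (tan bars), over all transcripts at left and protein_coding transcripts at right; bars are means of 2 libraries, circles replicate 1 and squares replicate 2. Psmb8 stands at 61.6 and 38.7 TPM at left and at 6.02 and 6.05 TPM at right, beside Psmb5 at 6.13 and 5.25 TPM in both panels.

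The ATPase ring of the 19S base spanned a narrower range of mean TPM than the lid (8.15-fold) or the 20S core (13.2-fold). Its 6 members, which unfold substrates, ranged from 7.04 TPM (Psmc2) to 20.95 TPM (Psmc6) as means, a 2.98-fold span. Psmc6 stood at 25.3 and 16.6 TPM, Psmc4 at 21.2 and 11.2 TPM, Psmc3 at 13.6 and 14.9 TPM, Psmc1 at 12.04 and 7.19 TPM, Psmc5 at 11.0 and 7.49 TPM, and Psmc2 at 9.20 and 4.88 TPM. Psmc3 was the only standard core or cap subunit whose TPM was higher in replicate 2 than in replicate 1. The base scaffolds Psmd2 (28.8 and 20.9 TPM) and Psmd1 (22.2 and 14.7 TPM) and the ubiquitin receptor Psmd4 (23.7 and 13.8 TPM) were with Psmc6 the highest of the base by mean TPM.

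The lid was led by Psmd8 (chromosome 7, 29174188 to 29180701, minus strand), a structural subunit, at 61.6 and 39.5 TPM. Psmd6 stood at 39.5 and 19.8 TPM and Psmd11 at 29.1 and 18.3 TPM. Psmd14, the deubiquitinase that removes the chain from the substrate, stood at 30.1 and 15.2 TPM. Psmd13 followed at 18.2 and 13.4 TPM, Psmd7, the partner of Psmd14, at 14.7 and 11.9 TPM, and Psmd3 at 15.2 and 9.31 TPM. Psmd12 was lowest at 7.72 and 4.68 TPM.

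Across the 31 standard subunits (14 of the core, 17 of the cap), mean TPM ran from 5.03 for Psma2 to 66.3 for Psma3, a 13.2-fold range, although the particle holds them in fixed proportions. The SD of log2 TPM was 0.91 over these genes, and the upper quartile was 2.13 times the lower. Over coding transcripts alone the SD was 0.74, from 2.61 TPM for Psmb3 to 27.7 TPM for Psmd8. The levels held their order between libraries, with a Pearson correlation across these 31 genes of 0.949 and a Spearman correlation of 0.917 for log2(TPM + 1). Between the alignment-based and the read-based table these were 0.880 and 0.872. Genes are not independent replicates, the libraries share the annotation and its transcript lengths, and no p-value is given.

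The activators Psme2 and Psme1 held the highest RNA of all 47 genes. Psme4 and Psme2b (means of 42.6 and 27.6 TPM) stood above the median of the 31 standard core and cap subunits, 14.8 TPM, but below their maximum. Psme3 stood below that median. Psme2 (chromosome 14, 55587441 to 55591113, minus strand), which encodes the beta subunit of the interferon-inducible PA28 ring, stood at 268 TPM in replicate 1 and 153 TPM in replicate 2 and ranked 171 among nuclear protein-coding genes by mean TPM. Psme1 (chromosome 14, 55578123 to 55581529, plus strand), its alpha partner, stood at 146 and 132 TPM. Psme4, which encodes PA200, stood at 54.3 and 30.9 TPM. Psme3, which encodes the nuclear PA28 gamma, was lower at 11.3 and 11.0 TPM, and none of the others overlapped it.

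Much of the PA28 signal lay outside full coding transcripts. Coding transcripts of Psme2 stood at 79.7 and 35.9 TPM, and its 185-base retained_intron model Psme2-203 alone at 53.1 and 39.4 TPM. A model that short has a small effective length, which raises its TPM per read. Coding transcripts of Psme1 stood at 27.7 and 25.99 TPM, and a 439-base nonsense-mediated decay model, Psme1-209, at 27.2 and 56.4 TPM. Coding transcripts in the read-based table held only 6.79% and 5.92% of the TPM of Psme2, against 29.7% and 23.5% in the alignment-based table, so its coding level is uncertain.

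Psme2b, on chromosome 11 (48945354 to 48946190, minus strand), is a copy of Psme2 with 1 coding exon in place of 11. Its level of 37.3 and 17.9 TPM rests on reads that differ little from Psme2. The coding sequences of Psme2-208 and Psme2b-201 are 717 bases each and differ at 5 positions (99.3% identical), with no change among 239 residues and an identical run of 311 bases. Reads over introns of Psme2 can be told apart from Psme2b. Within the spliced coding sequence only the differing bases can do so, and their densest stretch is shown. It covers coding bases 454 to 543 from GENCODE M21 transcripts, at chr14:55588049-55588276 with introns left out for Psme2 and chr11:48945576-48945665 for Psme2b, both on the minus strand, with the 3 differing bases in capitals.
Psme2: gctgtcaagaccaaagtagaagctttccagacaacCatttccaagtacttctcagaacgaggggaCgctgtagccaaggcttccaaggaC
Psme2b: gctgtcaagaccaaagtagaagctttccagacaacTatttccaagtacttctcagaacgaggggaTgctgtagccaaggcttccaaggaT
The alignment-based table gave Psme2 1551 and 1158 counts and Psme2b 326 and 236 counts. The read-based table gave 2085 and 2041 for Psme2 and 607 and 696 for Psme2b. The count totals of the tables differ, so these counts do not compare levels. In TPM the read-based table gave Psme2b 35.5 and 22.8, beside 37.3 and 17.9 in the alignment-based table. The deposited posterior SD of the Psme2b count, which describes uncertainty in assignment, was small at 2.41 and 2.37. Because the sequence of Psme2b differs so little from Psme2, its level is still taken as uncertain. Psme2b also overlaps 41 bases of 9930111J21Rik1 on the same strand, which had 3166 and 3037 counts.

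The inhibitor and the assembly chaperones had little RNA. Psmf1, which encodes PI31 and binds the 20S core, stood at 6.44 and 4 TPM. Of the chaperones of the base, Psmd9 stood at 7.88 and 4.07 TPM, Psmd10 at 2.93 and 3.79 TPM and Psmd5 at 1.74 and 1.69 TPM. The posterior SD of the Psmd9 count was the largest of the 47 genes, at 11.6 and 7.53 on 202 and 157 counts. Of the chaperones of the core, Psmg1 stood at 3.33 and 0.99 TPM, Psmg2 at 2.11 and 1.30 TPM and Psmg3 at 1.92 and 1.54 TPM. Psmg4 had 2 and 1 counts, no more than the 3 counts that an observed 0 was taken to allow.

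The tissue-restricted core subunits did not exceed those 3 counts in the gene tables. Psma8, an alpha subunit of the testis, had 3 and 0 counts. Psmb11, the thymus beta subunit (chromosome 14, 54621433 to 54629556, plus strand), had 0 in both libraries. In the read-based table Psmb11 had 224 and 137 counts (1.98 and 0.73 TPM), so its listing at 0 depended on how reads were assigned. Psmc3ip had 4.70 and 9.31 counts, and its exons overlap Mlx on the opposite strand.

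Retained-intron transcripts made up a large part of this RNA. Of the 47 genes, 31 have a transcript annotated as retained_intron, and 22 of these reached 5 TPM or more in both libraries. The median share of a gene's TPM in such transcripts was 52.2% in replicate 1 and 37.7% in replicate 2, against 39.3% and 33.0% over all 3788 nuclear protein-coding genes of this kind. The share was over 50% in both libraries for 7 of the 22, where 21.9% of all such genes were. In a nuclear fraction, unspliced RNA and a stable retained intron cannot be told apart from these tables.

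The genes differed widely in this share and kept much of their order. Psmc1 was lowest at 7.06% and 0%, followed by Psmd2 at 20.8% and 10.8% and Psmd4 at 24.6% and 13.7%. By the mean of the libraries Psme2 was highest at 70.3% and 76.5%, followed by Psmb3 at 71.4% and 60.1%, Psmd6 at 73.0% and 57.6%, Psma3 at 74.5% and 53.5% and Psmb7 at 75.1% and 51.9%. In replicate 1 alone Psmb7 was the highest and Psme2 stood below all of these. By class, the median over the mean shares was 54.5% for the 8 core genes and 31.9% for the 12 cap genes. Across the 22 genes the shares of the libraries had a Pearson correlation of 0.878 and a Spearman correlation of 0.818.

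The share was lower in replicate 2 for 19 of the 22 genes, and 72.3% of all such genes were lower there. The exceptions were Psmb4 (45.8% and 59.3%), Psme2 and Psma7 (56.4% and 56.5%). Psmd8 had 54.1% and 31.1%, and Psme1 had 62.5% and 37.6%. In the read-based table the medians were 59.8% and 46.4%, with 20 of 22 lower, where 68.2% of all such genes were lower and their medians were 41.6% and 36.6%. The share of TPM in coding transcripts was higher in replicate 2 for 25 of 33 genes (62.6% of all such genes were), with medians of 54.2% and 69.8%, where all such genes had 59.6% and 67.4%.

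**Figure D3:**
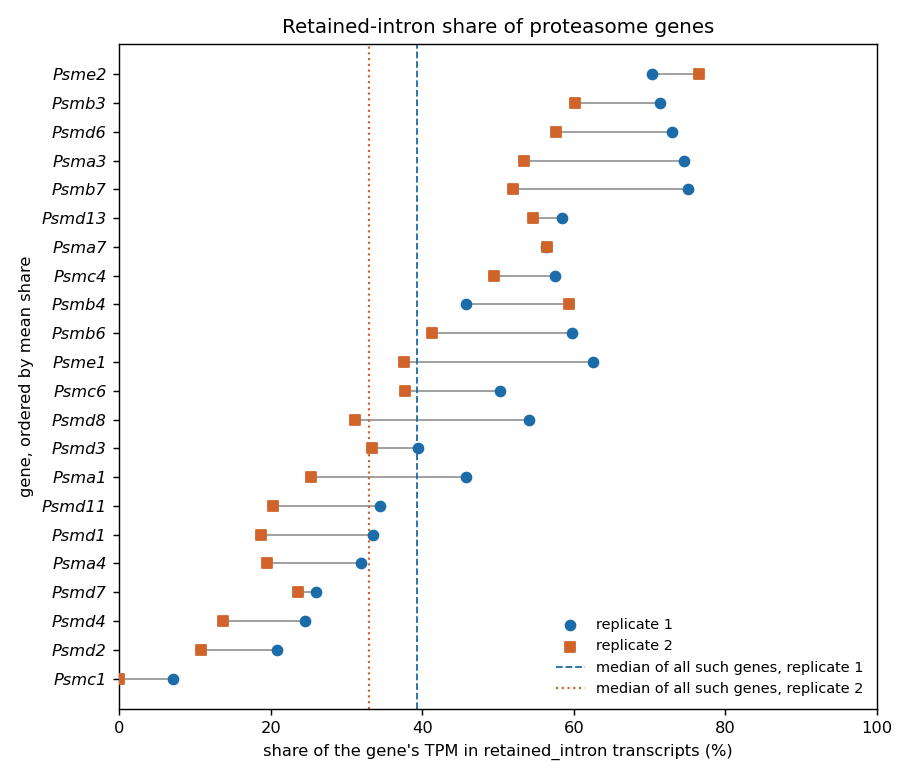
Share of each gene's TPM in retained_intron transcripts, in percent, for the 22 genes with such a transcript that reached 5 TPM in each library; circles are replicate 1, squares replicate 2, and vertical lines the medians of all 3788 such genes (39.3% and 33.0%). The squares lie left of the circles for 19 of 22 genes, and the genes run from Psmc1 to Psme2 by mean share.

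Between the libraries the proteasome genes differed about as the median gene did. Each gene's difference is the log2 ratio of TPM + 1 (replicate 2 over 1) from which the median of all genes with a mean of at least 1 TPM, -0.58, was subtracted. The median of the 43 proteasome genes at that level was 0.02, beside 0.06 for the 9548 protein-coding genes. Of the 43, 25 were higher in replicate 2, where 55.7% of protein-coding genes were. None passed 2-fold in either direction, where 7.17% of protein-coding genes did (5.45% higher and 1.73% lower). With the counts scaled by TMM, Psmd10 and Psmg1 passed it, as did Psmg1 with DESeq2 size factors and Psmd10 with a pseudocount of 0.1. With 1 library on each side these are values without a test.

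The extremes were single genes. Psma7 had the lowest value, -0.63, with 260 counts in replicate 1 and 186 in replicate 2. Psmg1 had -0.54 from 31 and 11 counts. Psmd10 had the highest value, 0.87, from 50 and 97 counts, and Psmc3 had 0.71 from 209 and 265 counts. By class, 11 of 14 core genes were higher in replicate 2 with a median of 0.16, and 7 of 17 cap genes with a median of -0.05, beside the 55.7% of all protein-coding genes. That split depended on the measure. Read-based values were higher for 8 of 14 core and 8 of 17 cap genes (medians 0.05 and -0.01), where 55.2% of protein-coding genes were. With counts scaled by TMM these were 9 and 11 genes, with medians of 0.13 and 0.09. The median of all protein-coding genes was then 0.11, beside 0.06 in the main setting. For comparison, 61 of 76 cytosolic ribosomal protein genes were higher, with a median of 0.47. The SD of this difference was 0.33 over the proteasome genes and 0.56 over all protein-coding genes.

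**Figure D4:**
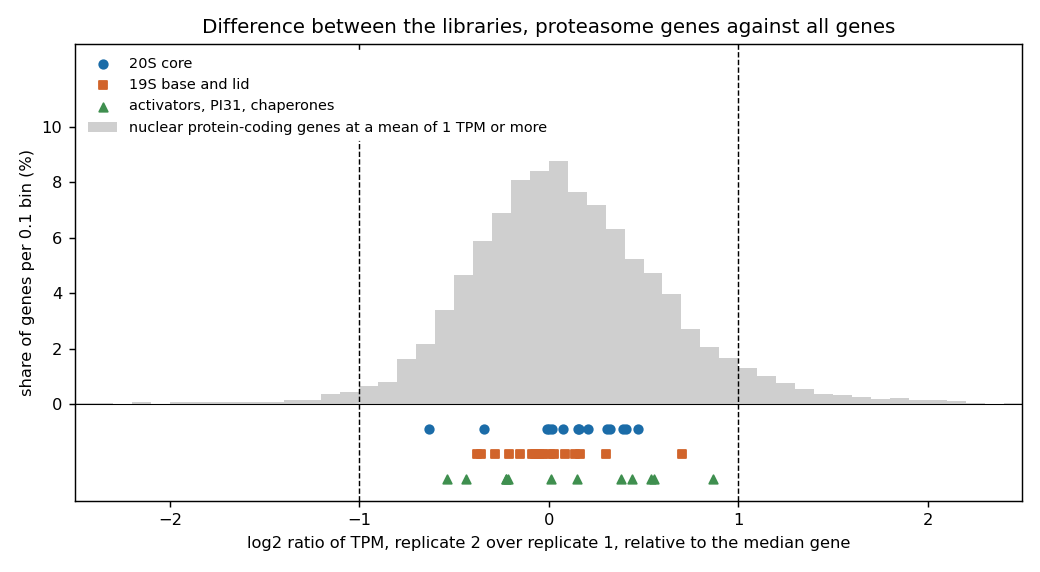
Relative log2 ratio of TPM + 1 (replicate 2 over replicate 1) for 9548 nuclear protein-coding genes as grey bars in percent of genes per bin, and for 43 proteasome genes as points below the axis, in 3 rows by class; dashed lines mark 2-fold. All 43 points lie within the dashed lines, from -0.63 for Psma7 to 0.87 for Psmd10.

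The split of that difference by transcript type was larger. For coding transcripts of the 33 genes at 5 TPM or more, the median relative log2 ratio was 0.28, beside 0.15 for all such genes. For the retained_intron transcripts of 22 genes it was -0.38, beside -0.18. The signs were those of the background for both kinds of transcript, and the medians were larger among the proteasome genes; that excess was not tested. The libraries differ in RNA input, mitochondrial share and stromal markers, as given above, and the part of these in the shift was not tested.

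The quantification tables placed most of the genes within 2-fold of each other. Relative to the median gene, of the 43 genes at a mean of 1 TPM or above in the gene table only Psma2 differed by more than 2-fold between the alignment-based and the read-based table (log2 1.43), where 6.91% of protein-coding genes did. Psmd14 came near that limit at 0.96, followed by Psmd5 at 0.86 and Psma5 at 0.78. Below 1 TPM, Psmb11 passed it at 1.30. For Psma2, the alignment-based table put the level in the 2911-base Psma2-201 (5.40 and 4.33 TPM), with 0 and 0.33 TPM in the 1353-base Psma2-202. The read-based table put 13.0 and 9.92 TPM in Psma2-202 and 3.15 and 2.06 TPM in Psma2-201. The place of Psma2 as the lowest core subunit thus holds in 1 table only, and Psmb5 was lowest in the other at a mean of 3.78 TPM.

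Genes with near-identical sequence had from 0 counts to a sizeable number beside those of the member. Whether their counts came from RNA of the members was not tested. Copies and exon overlaps were searched for the members only. The numbers of members with them thus have no share over all genes beside them and are not read as particular to the proteasome. Of the 47 genes, 17 have a transcript at least 95% identical over 200 bases or more to another gene, with 25 such genes in all. Among these are neighbours on either strand that share exons, and Psme2 and Psme2b, each counted for the other. Gm13835, identical to Psma3 over 685 bases, had 4.85 and 6.97 counts beside 972 and 999 for Psma3. Gm6542, a copy of Psma4, had 49.6 and 13.6 counts beside 288 and 298. A730017L22Rik, a copy of Psmd11, had 13.1 and 52.3 counts in the gene table beside 797 and 848 for Psmd11. Read-based counts of that copy were 508 and 399 beside 1236 and 1561 for Psmd11. Exons of 13 genes overlap another gene, among them Psmb7 with Nek6 (1854 and 1445 counts) on the opposite strand. Whether counting used strand is not given in the sources used here, so the levels of such genes are uncertain.

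Promoters were searched for known response elements because proteasome genes are textbook targets of the factor Nfe2l1 (NRF1), which binds antioxidant response elements. RefSeq promoters (GRCm38.p6) matched 39 of the 47 genes. The catalytic subunit Psmb7 and Psmb1, Psmb2, Psma8, Psmc3, Psmd3, Psmd7 and Psmg2 had no match and were not searched. For the rest, 250 bases before the start were read on both strands, counting motifs that overlap each other separately. The antioxidant element TGACNNNGC was found in 5 of 39 (12.8%), beside 12.2% of promoters of 7648 expressed protein-coding genes. CCAAT was found in 14 (35.9%, beside 36.1%). The interferon-stimulated element (GAAA, any 2 bases, GAAA) was found in 3 (7.69%, beside 3.03%), in Psmb3, Psmd4 and Psmd9. The STAT element TTCNNNGAA was found in 1 (2.56%, beside 6.05%). Shares near the background say nothing particular of these genes, and counts of 3 and 1 are too few to read. A match is a description of letters, not a bound site.

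Matches of the antioxidant element are shown for the catalytic subunits Psmb5 and Psmb6 and the cap subunits Psmc6 and Psmd12, to let the spacing from the start be seen. The fifth match, in Psmd9, is left out because its RefSeq start lies far from the GENCODE gene start. The element, or its reverse complement for Psmc6 and Psmd12, is in capitals. It begins at position -47 from the start in Psmb5, -9 in Psmb6, -227 in Psmc6 and -247 in Psmd12. The stretches lie at chr14:54618004-54618072 (minus strand), chr11:70525318-70525356, chr14:45329574-45329635 and chr11:107479278-107479319 (plus strand).
Psmb5: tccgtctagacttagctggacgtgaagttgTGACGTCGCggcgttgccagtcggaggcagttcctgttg
Psmb6: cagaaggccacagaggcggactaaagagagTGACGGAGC
Psmc6: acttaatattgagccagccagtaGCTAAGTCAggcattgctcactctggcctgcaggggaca
Psmd12: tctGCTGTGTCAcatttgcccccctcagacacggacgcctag
The genes with this element had unlike levels, from 5.69 TPM for Psmb5 and 6.20 TPM for Psmd12 to 20.95 TPM for Psmc6 and 54.1 TPM for Psmb6 as means.

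Partner genes of the pathway that could be matched were all detected. Of a list of ubiquitin carriers, receptors, deubiquitinases and regulators outside the symbol rule, 30 matched a gene. All 30 were detected, where 40.5% of nuclear protein-coding genes were. The listed names Shfm1, AI314180 and Paaf1 matched no annotated gene symbol, so no values are given under them. Ecpas, which encodes a proteasome-binding scaffold, was highest at 117 and 65.4 TPM. Ubqln2, a shuttle for ubiquitinated proteins, was lowest at 1.18 and 2.03 TPM. It was the only one past 2-fold between libraries (relative log2 1.06), where 7.17% of protein-coding genes were. Sem1 (22.1 and 15.0 TPM) and Adrm1 (19.7 and 10.2 TPM) are cap subunits outside the rule, and Pomp (19.6 and 9.34 TPM) matures the core; these were picked for their roles after their values were seen. Sem1 and Adrm1 lay within the range of the 17 cap subunits. Pomp stood above the 7 assembly chaperones in both libraries.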

How the data were processed

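The authors deposited, per library, gene and transcript tables from an alignment to the transcriptome, and another transcript table from the read files, on mm10 with annotation M21, per the labels' accompanying notes. For aligner, quantifier and versions: not given in the sources used here. Their headers match the output of RSEM and kallisto. Expected counts, as deposited, are estimates and can be fractional, per the file headers. The deposited TPM are scaled by effective length to one total per table, and the deposited FPKM by length and depth, per the file headers. The authors' percent of a gene's TPM per transcript and posterior SD of the count describe uncertainty in assignment, per the file headers.

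Levels are gene TPM in each library. Shares by transcript type were computed from transcript TPM for genes reaching 5 TPM in each library. Relative log2 ratios used a pseudocount of 1, which understates changes of low genes. Wilson intervals and the floor of 3 counts cover counting error only, since without molecular identifiers reads are not independent. Entries without a gene name took 1.41% and 0.245% of counts and were left out. Rounded expected counts were scaled with edgeR 4.0.16 and DESeq2 1.42.0 in R 4.3.3 as alternatives, and no test was run. Python 3.11.15, pandas 2.3.3, numpy 2.4.6, matplotlib 3.10.9 and BLAST 2.17.0 served the rest. The ratio step was tested on simulated data. The members and lists were chosen with earlier results of these data known. All members may be named, and of the partner list the highest, the lowest and those past 2-fold, with the exceptions marked. Alternatives were FPKM, the read-based table, other thresholds, pseudocount, scaling and filters, coding transcripts only, and each library alone.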

Additional observations from a re-analysis of the deposited data

How the results depend on the processing

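Over the alternatives, 55 values stayed within set tolerances of the reported ones and 12 moved. For counts of genes the tolerance was a ratio of 1.5, which is wide. By it, 33 members detected at 5 TPM counted as close to 42 at 1 TPM. Likewise 8 core genes higher in replicate 2 in the read-based table counted as close to 11. In the read-based table the median was 10.8 TPM for the base, 63.2 TPM for the activators and 2.23 TPM for the assembly chaperones, the SD of log2 TPM over the 31 core and cap subunits was 0.95, and the median coding share was 47.5% (62.9% in the alignment-based table). That SD was 0.74 over coding transcripts alone. The median relative log2 ratio of the members was 0.13 with TMM scaling, beside 0.11 for all protein-coding genes. Without the filter on low values it was -0.22, with 13 members higher in replicate 2; centring on all genes then shifts the median protein-coding gene to -0.21 by construction, and 5 core and 2 cap genes are then higher. Alternatives by class were chosen after seeing the data. The cap median of the relative ratio was -0.05 as reported. It was 0.01 with a pseudocount of 0.1, 0.09 with TMM and 0.06 with DESeq2 size factors, with 9, 11 and 10 of 17 genes higher. The median of all protein-coding genes was 0.06 as reported and 0.08, 0.11 and 0.08 in these settings. For the other moves the cause was not tested. Under a pseudocount of 0.1 Psmd10 passed 2-fold, under TMM Psmd10 and Psmg1, and under DESeq2 size factors Psmg1.

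With either library alone, 42 to 43 members were detected, and the medians ran from 11.0 to 14.7 TPM over all members, 13.8 to 21.2 TPM for the base and 30.9 to 54.3 TPM for the activators. No paired analysis was possible because there is 1 group. Genes with few counts, among them Psmg1, Psmg2, Psmg3, Psmg4, Psma8, Psmc3ip, Psmb5 and Psmd10, are limited by depth.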
